A study of Mus musculus with 7 samples.

Results

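The ribosomal protein genes of the mouse were followed as a housekeeping reference through a time course of H3K27ac, a histone acetylation that marks promoters and enhancers in use. The members were the protein-coding genes of GENCODE M21 whose symbol is Rpl or Rps followed by digits and at most 1 further letter, together with Rpsa, Rplp0, Rplp1 and Rplp2. Each gene was represented by the merged H3K27ac peak with the highest mean count within 2 kb of one of its transcription start sites (TSSs) in mm10. All 80 such genes had a peak, and these were 79 distinct peaks of the 66841 in the series, since 2 members share a peak. There were 46 genes of the large subunit, 31 of the small subunit and 3 of the ribosomal stalk. The ChIP-seq was of A2Lox cells, a line of mouse embryonic stem cells, carrying a NeuroD1 transgene that doxycycline switches on. Cells without doxycycline (0 h) were compared with cells given 500 ng per ml of doxycycline for 12 h or 48 h, with 2 replicates (R1 and R2) at each time point. The line and its transgene were shared by all groups, so no group separates NeuroD1 from doxycycline itself. The labels do not say whether replicates came from separate cultures, and the p-values therefore measure the spread between these libraries, which may be technical.

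Ribosomal proteins assemble with ribosomal RNA into the large and small subunits that translate every mRNA, and their genes are among the most strongly transcribed of a growing cell. Their mRNAs typically open with a short run of pyrimidines, the terminal oligopyrimidine (TOP) tract, through which the mTOR pathway adjusts their translation. Many of the genes carry small nucleolar RNAs (snoRNAs) in their introns, and several are used as references for expression measurements because their levels are taken to vary little.

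The promoters of 5 members were read from the mm10 (GRCm38) sequence, from 60 bases upstream of the annotated TSS to 30 bases downstream, on the strand of the gene. They are shown because Rpl7 and Rpl7a were the members whose acetylation passed the test described below, Rpl37a had the highest fold change at 12 h, Rpl26 was among the members that varied least, and Rps19 is the gene most often mutated in Diamond-Blackfan anaemia. Capitals mark the longest unbroken run of C and T between 20 bases upstream and 30 bases downstream of the TSS. The windows lie at chr1:16104633-16104722 (Rpl7, minus strand), chr2:26910704-26910793 (Rpl7a, plus), chr1:72711230-72711319 (Rpl37a, plus), chr11:68901523-68901612 (Rpl26, plus) and chr7:24884576-24884665 (Rps19, plus).
Rpl7: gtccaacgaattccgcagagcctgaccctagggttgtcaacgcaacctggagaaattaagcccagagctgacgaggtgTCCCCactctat
Rpl7a: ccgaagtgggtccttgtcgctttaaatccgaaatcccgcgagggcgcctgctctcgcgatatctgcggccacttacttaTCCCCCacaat
Rpl37a: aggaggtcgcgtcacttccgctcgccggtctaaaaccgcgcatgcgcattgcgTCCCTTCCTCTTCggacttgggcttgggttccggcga
Rpl26: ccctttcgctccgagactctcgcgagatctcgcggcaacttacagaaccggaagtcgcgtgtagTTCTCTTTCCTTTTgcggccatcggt
Rps19: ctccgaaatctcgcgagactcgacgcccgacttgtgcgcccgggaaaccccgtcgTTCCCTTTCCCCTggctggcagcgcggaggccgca

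The marked run had 13 bases in Rpl37a and Rps19 and 14 in Rpl26. In Rpl7 and Rpl7a the longest run had 5 and 6 bases and began 18 and 19 bases downstream of the annotated TSS. A run of at least 8 pyrimidines in this window was found in 38 of the 80 members (47.5%) and in 2232 of 13130 protein-coding genes with a promoter peak (17%), the members included, and in 18% of those whose promoter peak held at least 300 scaled counts, reads scaled to the mean library total. The annotated TSS was that of the lowest-numbered GENCODE transcript starting near the peak, and it need not be the start used in these cells. The median log2 fold change at 12 h vs 0 h was -0.11 for the 38 genes with such a run and -0.10 for the 42 without it. With and without a run it was 0.057 and 0.082 at 48 h vs 0 h, and 0.16 and 0.22 at 48 h vs 12 h.

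Short strings bound by known promoter factors were searched on both strands of the window from 250 bases upstream to 50 bases downstream. None of the strings contains another, and shares are given for all 13130 genes and then for the 4246 genes whose promoter peak held at least 300 scaled counts. The ETS string CCGGAAGT occurred in 14 members (17.5%) and in 7.88% and 9.66% of these genes, and the CRE string TGACGTCA in 6 members (7.5%) and in 3.27% and 3.89%. The YY1 string GCCATNTT was found in 10 members (12.5%) and in 8.48% and 12.1%, so that the share in members was close to that in genes with strong promoter peaks. The GC box GGGCGG, by contrast, was in 55% of members and in 65.3% and 68.8% of these genes, and CCAAT in 28.7% of members and in 38% and 37.8%. CGCATGCG, the core of the NRF1 motif, was present in 1 member, Rpl37a, and in 3.7% and 4.85%. TATAAA on the sense strand between 40 and 20 bases upstream was found in 1 member, Rps2, and in 0.777% and 0.824%. The E-box CAGATG, of the class that NeuroD1 and its partners bind, was found in 6 members (7.5%) and in 11.1% and 9.75%, and the E-box CAGCTG in 5 members (6.25%) and in 14.3% and 11.9%. These are matches of letters in a fixed window and not observed binding.

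The ribosomal protein promoters carried broad and strong peaks, but the rule took the peak with the highest mean count near each gene. All promoter peaks also include the weaker peaks of genes that have several, so the comparison leans towards the members. Of the 80 members, 69 had 1 promoter peak. The median width of the member peaks was 4197 bp, and the median width of all 16416 promoter peaks was 1306 bp. Read counts were scaled by library total to a mean of 6976010 reads per library (scaled counts). The median member peak held 665 scaled counts with an interquartile range of 563 to 872, and its median percentile among promoter peaks was 93.7. Levels of different genes were compared per kb of peak, which gave a median of 157 reads per kb for the members, 78.8 for all promoter peaks and 156 for the 3623 promoter peaks with at least 300 scaled counts (strong promoter peaks, a level chosen after the data were seen). Among the denser peaks were those of Rpl19 at 247 reads per kb and of Rps27l, a p53-induced relative of Rps27, at 232. At the lower end, among peaks with at least 20 reads on average, Rps4x stood at 83.9 reads per kb.

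The peaks extended mainly into the genes. In 68 of the 76 peaks with at least 20 reads the part downstream of the TSS was longer than the part upstream, and the whole gene body was covered in 25 genes. At least 1 annotated TSS lay inside the peak in 77 of 80 genes, the exceptions being Rpl3l, Rpl10l and Rpl39l. In 18 genes the peak also held the TSS of another gene, such as Rdh10 beside Rpl7, Med22 beside Rpl7a and Rab13 beside Rps27, and its reads cannot be assigned to either gene. The members hosted 56 snoRNA genes in 29 genes, with the most, 5, in Rpl4. Ribosomal protein genes have many near-identical processed copies in the genome, and how reads with several matches were placed is not given in the sources used here, so counts over exons are uncertain to that extent.

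Total reads in merged peaks ranged from 6283103 to 8112895 per library. The replicates at 48 h differed more than those of the other time points: compared over the members, R1 and R2 had a chi-square per degree of freedom of 2.66, 1.29 and 4.32 (0 h, 12 h and 48 h), and compared over all peaks of 1.79, 1.42 and 5.54. All 8 embryonic stem cell markers had promoter peaks, and together they took 0.30% of reads in each of the 0 h libraries, 0.335% and 0.337% in the 12 h libraries, and 0.201% and 0.257% in the 48 h libraries. Promoter peaks were found for 6 of 9 neuron markers, with a summed share of 0.00636% to 0.00737% of reads before 48 h and 0.0129% and 0.00897% in the 48 h libraries, and for 3 of 9 embryonic fibroblast markers, with 0.000938% to 0.00247% in all libraries. Single markers went either way. At 12 h vs 0 h 6 of the 8 stem cell markers had a log2 fold change above 0 and 2, Nanog and Klf4, below. At 48 h vs 0 h all 8 were below 0. Of the 6 neuron markers 2 were above 0 and 4 below at 12 h vs 0 h, and 4 above and 2 below at 48 h vs 0 h. The part of these marker shifts in the values below was not tested. In such bulk material, fewer cells carrying the mark and less of the mark per cell cannot be told apart.

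Summed over all members, the share of reads was 0.810% and 0.813% in the 0 h libraries, 0.724% and 0.778% in the 12 h libraries, and 0.854% and 0.846% in the 48 h libraries. The means of the 0 h, 12 h and 48 h libraries were 0.812% ± 0.0019, 0.751% ± 0.039 and 0.850% ± 0.0059 (SD, n = 2). Both 12 h libraries were below, and both 48 h libraries above, the 0 h libraries. Over the same libraries the share of reads in all promoter peaks was 52.2% and 53.7% in the 0 h libraries, 44.3% and 44.2% in the 12 h libraries, and 57.4% and 50.3% in the 48 h libraries. Of the reads in promoter peaks, the members took 1.55% and 1.51% in the 0 h libraries, 1.63% and 1.76% in the 12 h libraries, and 1.49% and 1.68% in the 48 h libraries. On that scale the 12 h libraries were the higher ones relative to 0 h, and the 48 h libraries lay on either side of 0 h.

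**Figure D1:**
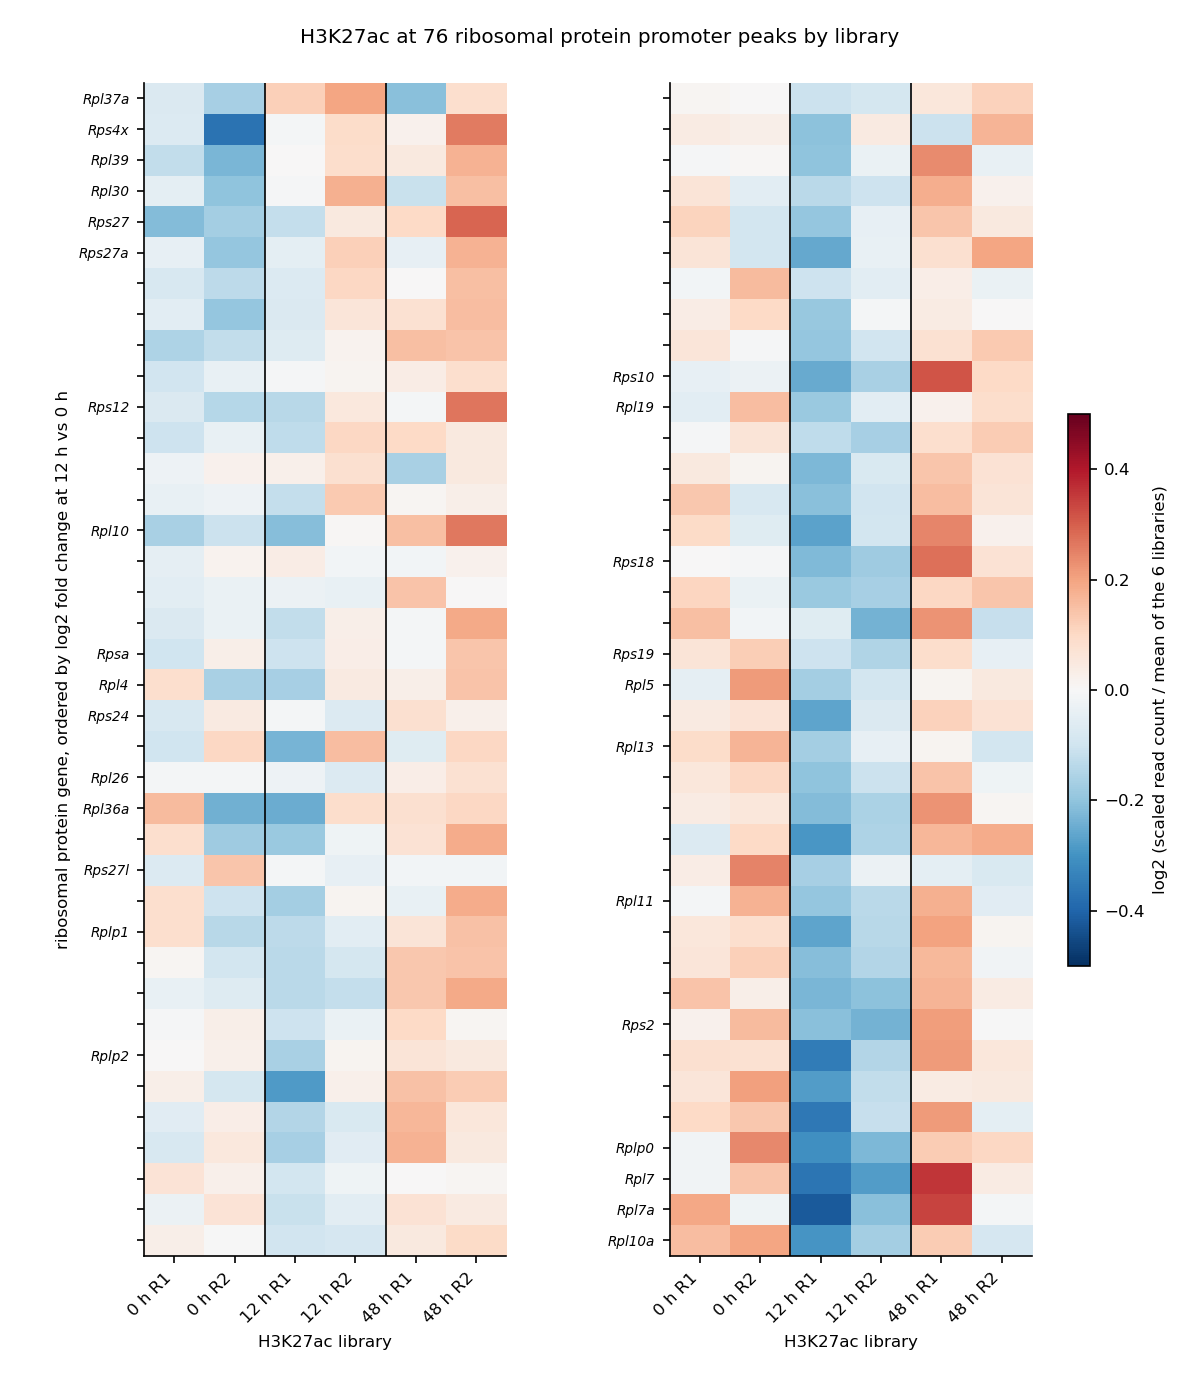
Each row is a ribosomal protein promoter peak with at least 20 reads on average, ordered by its log2 fold change at 12 h vs 0 h (highest at the top of the left panel, lowest at the bottom of the right panel), and each column is a library, with gene symbols for the members described in the text. Colour gives the log2 ratio of the scaled read count to the mean of that peak over the 6 libraries, from blue (-0.5) to red (0.5). The 12 h R1 column was the lowest library for 54 of the 79 member peaks.

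Individual members varied little across the 6 libraries. The coefficient of variation (CV) of the scaled count had a median of 9.16% over the 76 peaks with at least 20 reads, where counting alone gives 3.83% at the median count of these peaks. For comparison the median CV was 16.7% over strong promoter peaks and 25.8% over all promoter peaks. Of the 75 members that were strong promoter peaks, 73 had a CV below the median of that class. The ratio of the highest to the lowest library was under 1.5 in 73 of 79 members and in 45.4% of strong promoter peaks. No test was run on this difference, since the members are not replicates of a condition.

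Rpl26, a protein of the large subunit, had 544 and 543 scaled counts in the 0 h libraries, 537 and 523 in the 12 h libraries, and 560 and 577 in the 48 h libraries, with a CV of 3.44%, and its time points did not overlap. The 13 peaks of commonly used reference genes had a median CV of 14.5%. Among them Pgk1, a glycolytic enzyme, varied by 3.65% and Actb, cytoplasmic actin, by 6.95%, whereas Ywhaz, a 14-3-3 protein, varied by 24%. Rplp0, which is a member and a common reference gene, varied by 14.5%.

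At 12 h vs 0 h no ribosomal protein promoter passed the test. The quasi-likelihood test of edgeR, with p-values adjusted by the Benjamini-Hochberg method across 66841 peaks, called 0 of 79 members gained, where 9.93% of all peaks were, and 0 lost, where 6.03% were. At an unadjusted p under 0.05 there were 0 members gained and 7 lost, where 16.6% and 15.1% of all peaks were, and DESeq2 called 0 members. Over all peaks, 11.3% were gained and 3.95% lost with TMM factors, and 6.07% and 1.85% with DESeq2. The median log2 fold change of the members was -0.10 with a range of -0.41 to 0.28, and the medians were -0.38 over all promoter peaks and -0.31 over strong promoter peaks. With library totals 60 members had a log2 fold change below 0 and 19 above, with TMM factors 53 and 26, and with the summed member reads as the library size 39 and 40, a scale that moved the median of all peaks from -0.080 to 0.029. That scale equalises the summed member reads across libraries. An even split and small member medians therefore follow by construction and do not show that the members are steady.

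At 42 members each 12 h library was below each 0 h library, an order found at 35.1% of all peaks and at 10343 of 16416 promoter peaks. The opposite order was found at 10 members and at 30.7% of all peaks. The 95% interval of the fold change stayed within 1.5-fold in either direction for 63 of the 79 members (79.7%), for 34.2% of strong promoter peaks and for 11.6% of all promoter peaks. Interval width depends on the count, and the members are strongly covered.

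Rpl10a, a protein of the large subunit, had the lowest fold change of the members at 12 h. Its scaled counts were 867 and 893 in the 0 h libraries, 636 and 693 in the 12 h libraries, and 852 and 736 in the 48 h libraries. Both 12 h libraries were below all others, and the log2 fold change was -0.41 (SE 0.15, edgeR adjusted p = 0.0715). The large-subunit genes Rpl7a and Rpl7 came next at -0.40 (adjusted p = 0.107) and -0.38 (adjusted p = 0.11) by the same edgeR test, and Rplp0 followed at -0.38 (edgeR adjusted p = 0.129). Rpl37a, a zinc-binding protein of the large subunit, had the highest fold change, with 578 and 542 scaled counts in the 0 h libraries, 659 and 697 in the 12 h libraries, and 525 and 645 in the 48 h libraries. Its 12 h libraries were above all others, with a log2 fold change of 0.28 (SE 0.16, edgeR adjusted p = 0.242). Which members passed differed once a 48 h library was left out of the shared estimate of the spread. Without 48 h R1, or without 48 h R2, 17 members were lost (Rpl10a, Rpl7, Rpl7a, Rplp0 and Rps19 among them) and Rpl37a gained, where 15.8% of all peaks were lost and 16.2% or 16.1% gained. The number of members within 1.5-fold fell to 31 without 0 h R1, 34 without 0 h R2, 31 without 12 h R1 and 20 without 12 h R2.

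**Figure D2:**
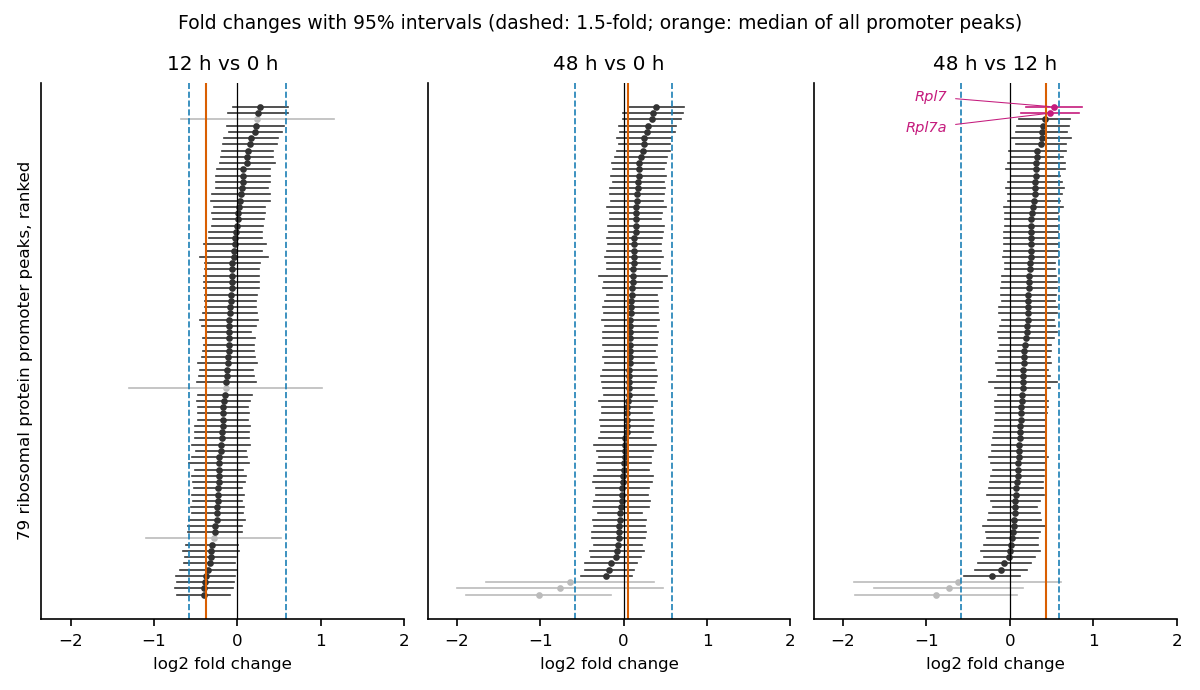
Each point is the log2 fold change of a ribosomal protein promoter peak in the named comparison with its 95% interval from the edgeR fit, ranked within the panel, with the 3 peaks under 20 reads in grey. Dashed lines mark 1.5-fold, and the orange line is the median of all promoter peaks (-0.38, 0.055 and 0.44 from left to right). The interval lay within the dashed lines for 63, 71 and 59 of 79 members, and the peaks that passed the test were Rpl7 and Rpl7a at 48 h vs 12 h (magenta).

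No member passed the test at 48 h vs 0 h either. edgeR called 0 of 79 gained, where 8.56% of all peaks were, and 0 lost, where 5.45% were. At an unadjusted p under 0.05 there were 1 member gained and 1 lost, where 14.1% and 12.8% of all peaks were, and DESeq2 called 0 members. Over all peaks DESeq2 called 5.37% gained and 1.54% lost. The median log2 fold change was 0.074 with library totals, 0.15 with TMM factors and 0.0077 with the summed member reads, and 0.055 over all promoter peaks. Both 48 h libraries were above both 0 h libraries at 30 members, where 23.9% of all peaks were, and below at 7, where 28.7% were. The interval lay within 1.5-fold for 71 members (89.9%) and for 71.8% of strong promoter peaks. Without 0 h R1 the former number was 41.

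Rps27, a zinc-binding protein of the small subunit, had the highest fold change at 48 h vs 0 h. Its scaled counts were 551 and 569 in the 0 h libraries, 590 and 662 in the 12 h libraries, and 686 and 783 in the 48 h libraries. The groups did not overlap, and the log2 fold change was 0.39 (SE 0.16, edgeR adjusted p = 0.103). Among members with at least 20 reads Rpl13 at -0.17 and Rpl10a at -0.15 were near the lower end, with edgeR adjusted p-values of 0.478 and 0.576. Without 48 h R1, 5 members were gained (Rpl10, Rpl39, Rps12, Rps27 and Rps4x), where 11.3% of all peaks were. Without 48 h R2, Rps10 and Rps18 were gained and Rpl3l lost, where 12.4% of all peaks were gained and 11.2% lost.

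At 48 h vs 12 h, a comparison that shares its libraries with both others, H3K27ac rose at 2 member peaks. Each of them also holds the TSS of another gene. edgeR called Rpl7 and Rpl7a gained, 2 of 79 members where 10.7% of all peaks were gained, and 0 members lost where 8.43% were. Both were among the 17 member peaks that hold another TSS, and 0 of the 62 other member peaks were gained. The median log2 fold change was 0.25 over these 17 and 0.16 over the 62. The part of the neighbouring genes was not tested. At an unadjusted p under 0.05 there were 9 members gained and 0 lost, where 18.2% and 15.4% of all peaks were, and DESeq2 called 1 member gained and 0 lost, where it called 6.57% and 4.6% of all peaks. With the summed member reads as the library size 0 members were called, Rpl7 and Rpl7a included, where 5.56% of all peaks were gained and 12.9% lost. The median log2 fold change was 0.18 with library totals and with TMM factors, -0.00080 with the summed member reads, which moved the median of all peaks from -0.034 to -0.21, and 0.44 over all promoter peaks. Both 48 h libraries lay above both 12 h libraries at 53 members, where 30.3% of all peaks did, and below at 4, where 31.2% did. The first order was found at 10112 of 16416 promoter peaks and at 2588 of the 3623 strong promoter peaks. The second was found at 1756 and 410 of these. The interval was within 1.5-fold for 59 members (74.7%) and for 30.5% of strong promoter peaks, and the number of members fell to 25 without 12 h R1 and 11 without 12 h R2.

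Rpl7, a protein of the large subunit, had 612 and 681 scaled counts in the 0 h libraries, 480 and 511 in the 12 h libraries, and 793 and 637 in the 48 h libraries (peak at chr1:16102851-16106330, which spans the TSS and the first part of the gene). The 12 h libraries were below all others, and 0 h and 48 h overlapped. The log2 fold change at 48 h vs 12 h was 0.53 (SE 0.16, edgeR adjusted p = 0.0269). When the 3 time points were tested together Rpl7 was the 1 member called, where 29.5% of all peaks were. Rpl7a, a further protein of the large subunit with 3 snoRNA genes in its introns, had 680 and 586 scaled counts in the 0 h libraries, 445 and 514 in the 12 h libraries, and 752 and 591 in the 48 h libraries (chr2:26908654-26912959). Its 12 h libraries were likewise the lowest, and its log2 fold change at 48 h vs 12 h was 0.48 (SE 0.17, edgeR adjusted p = 0.0476). Rps10 came next with 0.42 (edgeR adjusted p = 0.0505). Without any 1 of the 0 h or 12 h libraries neither gene was called, and Rpl7a was at 0.30 without 48 h R1 (edgeR adjusted p = 0.0906). Without 48 h R1 there were 8 members gained, Rpl7 but not Rpl7a among them, where 8.61% of all peaks were gained. Without 48 h R2 there were 21 gained and Rpl37a lost, where 19.4% of all peaks were gained and 17.3% lost. An offset for the GC content of peaks gave 12 members gained, with Rpl7 among them, where 14.0% of all peaks were gained, a share close to that of the members. With this offset the log2 fold change was smaller in both genes, at 0.36 for Rpl7 and 0.35 for Rpl7a. Rpl7a was then not called (edgeR adjusted p = 0.0517).

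**Figure D3:**
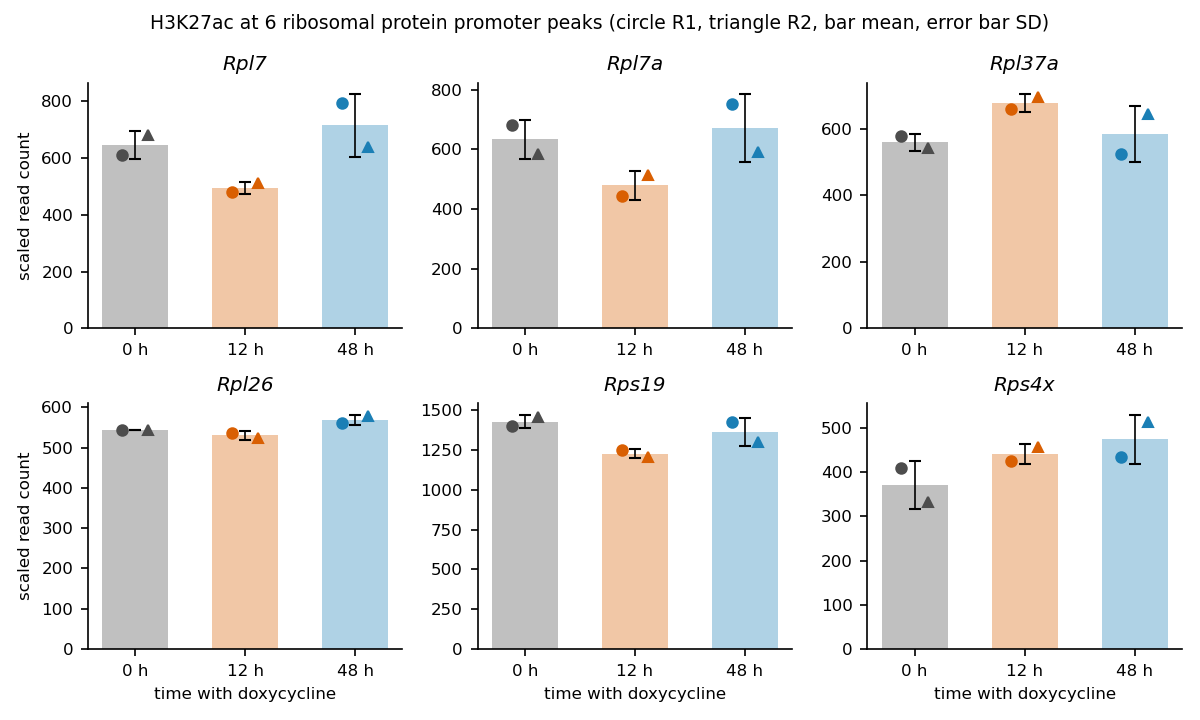
Scaled read counts at 6 ribosomal protein promoter peaks are plotted for 0 h, 12 h and 48 h, with circles for R1, triangles for R2, bars for the mean and error bars for the SD (n = 2). Rpl7 and Rpl7a had their lowest values at 12 h, Rpl37a its highest, Rpl26 kept between 523 and 577, and the R1 and R2 values of Rpl7, Rpl7a and Rpl37a lay farthest apart at 48 h.

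In 38 peaks, those of 39 genes, both 12 h libraries were below the other 4, where 18.4% of all peaks and 8104 of the 16416 promoter peaks had this order. In 2 peaks, those of Rpl37a and the low peak of Rpl39l, both 12 h libraries were above the other 4, where 17.8% of all peaks were. The 38 peaks included 23 of the 46 large-subunit genes. Large and small subunits had close medians, at -0.13 and -0.099 for 12 h vs 0 h, 0.077 and 0.074 for 48 h vs 0 h, and 0.21 and 0.16 for 48 h vs 12 h.

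Diamond-Blackfan anaemia, a failure of red cell production caused by loss of 1 copy of a ribosomal protein gene, was represented by 9 of the genes in which such mutations are known, Rps19, Rps24, Rpl5 and Rpl11 among them. None of the 9 passed the test in any comparison, and their medians were -0.17, 0.016 and 0.16 for 12 h vs 0 h, 48 h vs 0 h and 48 h vs 12 h. Rps19 had 1399 and 1456 scaled counts in the 0 h libraries, 1247 and 1205 in the 12 h libraries, and 1422 and 1302 in the 48 h libraries. Its 12 h libraries were the lowest, at a log2 fold change of -0.22 (edgeR adjusted p = 0.284). Rpl5 and Rpl11, which bind the 5S ribosomal RNA and restrain Mdm2, had log2 fold changes relative to 0 h of -0.22 and -0.25 after 12 h, and of -0.059 and -0.022 after 48 h. Rps24 ranged from 626 to 701 scaled counts over the 6 libraries.

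The stalk, through which elongation factors reach the ribosome, was represented by Rplp0, Rplp1 and Rplp2. Rplp0 had 390 and 467 scaled counts in the 0 h libraries, 320 and 338 in the 12 h libraries, and 431 and 425 in the 48 h libraries, and its 12 h libraries were the lowest. Rplp1 and Rplp2, which bind Rplp0, were at -0.069 and -0.086 on the log2 scale after 12 h, relative to 0 h, and none of the 3 genes passed the test in any comparison. Rpsa, the small-subunit protein also known as the laminin receptor, had 903 and 987 scaled counts in the 0 h libraries and 901 and 989 in the 12 h libraries, and its log2 fold change relative to 0 h was 0.10 after 48 h. Rps27a, which encodes ubiquitin fused to a ribosomal protein, was at 0.15 and 0.19 relative to 0 h after 12 h and 48 h (edgeR adjusted p = 0.519 and 0.484). Fau, which encodes a ribosomal protein fused to a ubiquitin-like protein, is outside the rule and rose at 48 h vs 12 h, with a log2 fold change of 0.51 (edgeR adjusted p = 0.0277), at a peak it shares with a gene of the mitochondrial ribosome, so that its reads cannot be assigned to either gene.

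Paralogs with restricted expression had the weakest peaks. Rpl10l and Rpl39l, known from the male germline, and Rpl3l, known from striated muscle, had means under 20 reads, with 4 to 27 reads per library over the 3 genes. Rpl3l held 18.5 and 28.7 scaled counts in the 0 h libraries, 18.2 and 20.2 in the 12 h libraries, and 8.88 and 13.8 in the 48 h libraries, with both 48 h libraries the lowest. Its log2 fold change at 48 h vs 0 h was -1.02 (SE 0.42, edgeR adjusted p = 0.115), with so few reads that the counting error is wide. Rps27l, with 634 to 731 scaled counts, was at the level of the main members. The X-linked gene Rps4x had 410 and 332 scaled counts in the 0 h libraries, 426 and 457 in the 12 h libraries, and 435 and 513 in the 48 h libraries. Its 12 h and 48 h libraries were all above the 0 h libraries, with log2 fold changes of 0.25 and 0.36 relative to 0 h (edgeR adjusted p = 0.329 and 0.191).

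Other genes of protein synthesis were set beside the members. The 77 promoter peaks of mitochondrial ribosomal proteins had medians of -0.33 at 12 h vs 0 h (1 gained and 12 lost by the edgeR test), 0.13 at 48 h vs 0 h (3 gained) and 0.43 at 48 h vs 12 h (20 gained and 1 lost). The 40 genes of ribosome biogenesis were at -0.30 (9 lost), 0.059 (none called) and 0.28 (9 gained), and the 36 translation factors at -0.30 (8 lost), 0.029 (1 lost) and 0.33 (7 gained). In these lists 15.6%, 22.5% and 22.2% were lost at 12 h vs 0 h, beside 17.0% of all promoter peaks and 24.1% of strong ones. At 48 h vs 12 h 26.0%, 22.5% and 19.4% were gained, beside 27.4% and 28.9%. At 48 h vs 0 h 4.87% of all promoter peaks were gained and 2.88% lost. For 8 relatives of ribosomal proteins outside the rule the medians were -0.19, 0.096 and 0.30, with the peak of Fau the 1 called, a peak that is also counted among the mitochondrial ribosomal proteins. The 13 common reference genes were at -0.35, -0.039 and 0.25, with Ywhaz lost at 12 h vs 0 h and Tbp and Ywhaz gained at 48 h vs 12 h. The median CV was 17.1% for the mitochondrial ribosomal proteins, 15.1% for ribosome biogenesis and 14.8% for the translation factors. The median scaled count of the mitochondrial ribosomal proteins was 217, and that of the translation factors 631.

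**Figure D4:**
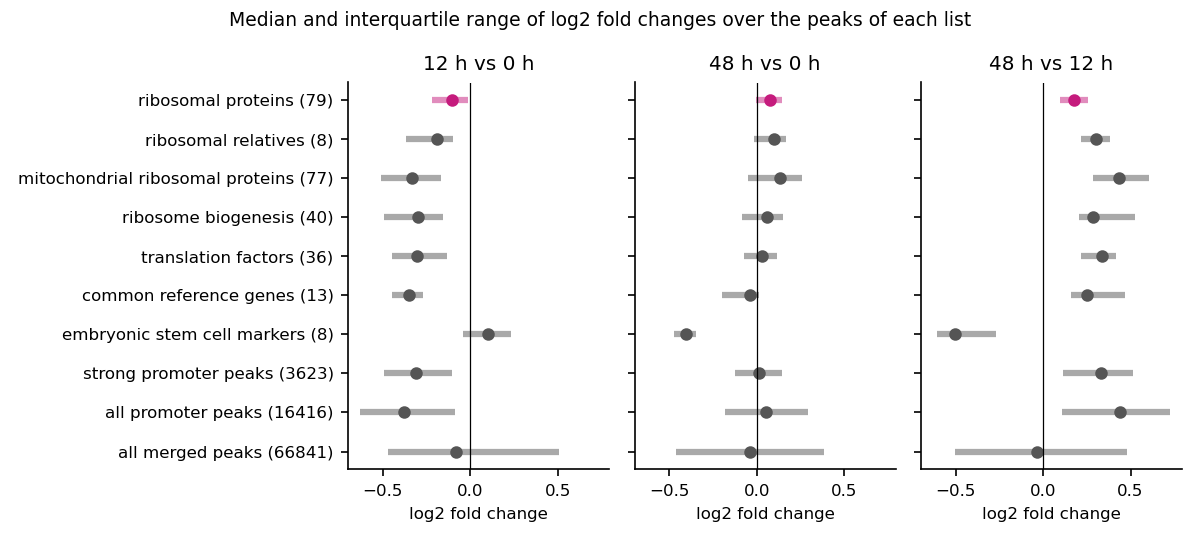
Points are medians and bars interquartile ranges of log2 fold changes, with library totals as the scale, over the promoter peaks of each gene list, and the number of peaks is in parentheses. The ribosomal protein medians were -0.10, 0.074 and 0.18, and with the summed member reads as the library size they were 0.0084, 0.0077 and -0.00080. That scale equalises the summed member reads across libraries, so small member medians follow by construction. Those of all promoter peaks with library totals were -0.38, 0.055 and 0.44.

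The fold change of the members followed the GC content of their peaks. Across the 76 peaks with at least 20 reads, which share the same libraries, the log2 fold change at 12 h vs 0 h and GC content had a Pearson r of -0.73 and a Spearman rho of -0.73. The values were -0.35 and -0.37 at 48 h vs 0 h, and 0.58 and 0.52 at 48 h vs 12 h. In the 38 peaks with less GC (42.4% to 49.6%) the median at 12 h vs 0 h was -0.040, and in the 38 with more (49.6% to 57.8%) it was -0.22. Rpl30, with the lowest GC content of the members, was at 0.21 at 12 h vs 0 h, while Rpl7, with the highest among these peaks, was at -0.38. The member peaks had a median GC content of 49.6%, and the promoter peaks 54.5%. The correlation was computed over the members alone, so it does not set them apart from other promoters. With the GC offset, fitted over the merged peaks, the member median at 12 h vs 0 h went from -0.10 to -0.13. That of all promoter peaks went from -0.38 to -0.21. The part of GC content in the values of single members was not tested beyond this offset. Neither peak width (r = 0.044) nor mean scaled count (r = -0.11) showed such a relation at 12 h vs 0 h.

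**Figure D5:**
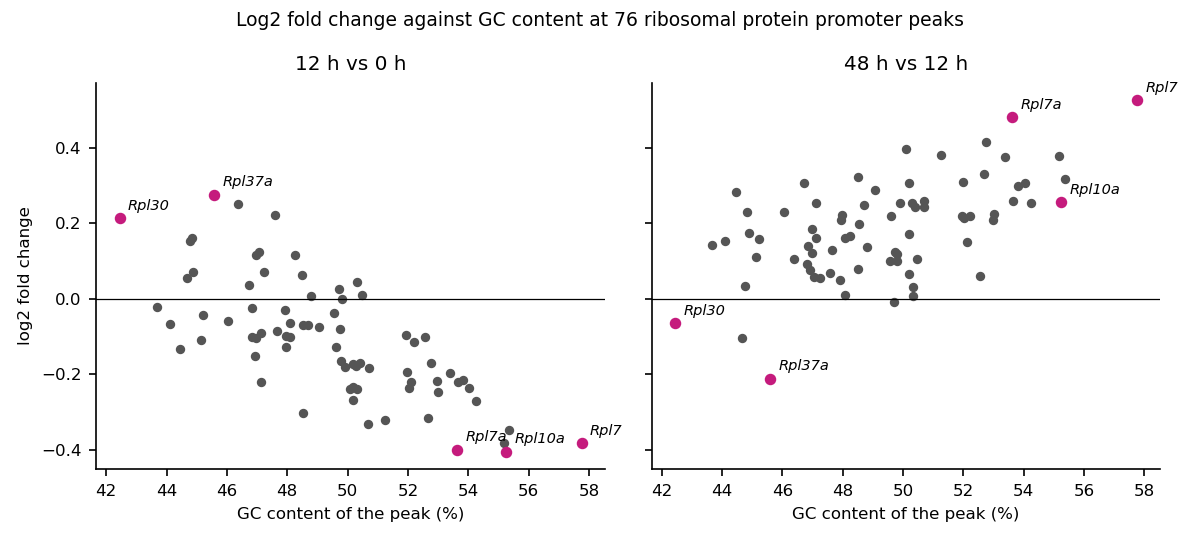
The log2 fold change of each of 76 ribosomal protein promoter peaks is plotted against the GC content of the peak in percent, for 12 h vs 0 h (left, r = -0.73) and 48 h vs 12 h (right, r = 0.58). Rpl7, Rpl7a and Rpl10a lie at high GC content and Rpl30 and Rpl37a at low GC content.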

How the data were processed

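H3K27ac ChIP-seq of A2Lox cells was processed from 6 libraries, grouped by the time point and replicate number of their labels. The Input library, with no column in the table, was left out. For the deposited file the authors used Bowtie2 (local mode, mm10), SAMtools 0.1.19 for sorting and MACS2 for peak calling with Input as the control. They pooled the peaks of every library into a merged set and deposited the raw read counts that QuasR gave for each merged peak. Those counts are not normalised.

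The quasi-likelihood fit of edgeR 4.0.16 (R 4.3.3) used a single model for the 6 libraries, with library totals as offset, no filter on the 66841 peaks and Benjamini-Hochberg adjustment at 0.05. The 95% intervals used the standard error derived from the F statistic. Alternatives were TMM factors, DESeq2 1.42.0, a count minimum of 10 in at least 2 libraries, a replicate block, the 4 libraries compared, a GC offset (lowess, span 0.3), the nearest peak, a 1 kb window, each library left out, and the members' summed reads as library size. The fits were tested on simulated data that had the same spread in all libraries, scored at 12 h vs 0 h. The wider spread of the 48 h libraries was not covered by that test. Genes and TSSs were those of protein-coding transcripts in the basic annotation of GENCODE M21. Leaving out the 3 peaks under 20 reads was an alternative added after seeing the data. Sequences were read with pysam 0.24.0, tables with Python 3.11.15 and pandas 2.3.3, and figures drawn with matplotlib 3.10.9.

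Named members were those of fixed lists (Diamond-Blackfan anaemia, stalk and Rpsa, paralogs, ubiquitin fusions), the 3 highest and 3 lowest fold changes per comparison and the 3 smallest CVs among peaks with at least 20 reads, the 3 highest and lowest mean counts, and genes sharing a peak. The members and lists were chosen with earlier results of these data known. That rule also covers some items that are not reported here. Genes named for density, GC content or position were picked with their values in view.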

Additional observations from a re-analysis of the deposited data

Results flagged for a closer look

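The promoter peaks of Rpl7 and Rpl7a stood out because their 12 h and 48 h levels, each taken against 0 h, were apart by a test of the difference itself, with log2 fold changes of 0.527 and 0.482 at 48 h vs 12 h (edgeR quasi-likelihood test, Benjamini-Hochberg adjusted p = 0.0269 and 0.0476). Each was lower in both 12 h libraries than in the other 4. Across alternatives with both libraries of the 12 h and 48 h groups, the edgeR or DESeq2 adjusted p ranged from 0.0275 to 0.0666 for Rpl7. For Rpl7a it ranged from 0.0483 to 0.0976. The summed member reads as the library size are not part of these ranges. With a library left out, the log2 fold change was 0.36 to 0.68 for Rpl7 and 0.30 to 0.65 for Rpl7a. Both genes were lowest without 48 h R1 and highest without 48 h R2. With the GC offset the log2 fold changes were 0.36 for Rpl7 and 0.35 for Rpl7a. With the summed member reads as the library size neither peak was called. Each peak also holds the TSS of a neighbouring gene, Rdh10 and Med22. Groups of 2 libraries are too small for a check of outlying samples.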

How the results depend on the processing

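The counts of members called rest on 2 libraries per time point and on a shared estimate of the spread. At 12 h vs 0 h the number called was 18 with the 4 libraries compared, where 16.2% of all peaks were gained and 15.9% lost, and 1 with the GC offset (Rps25), where 8.71% and 4.88% were. Leaving out a 48 h library also changed that number, as given above with the shares over all peaks. At 48 h vs 0 h it was 0 to 5 with a library left out, where 2.46% to 12.4% of all peaks were gained. At 48 h vs 12 h it was 1 with TMM factors, 1 with DESeq2, 0 with the 4 libraries compared, 12 with the GC offset and 0 to 22 with a library left out, where 10.9%, 6.57%, 6.91%, 14.0% and 1.02% to 19.4% of all peaks were gained. The summed member reads as the library size gave 0 members there, where 5.56% of all peaks were gained. The replicate block called 1 member there, Rpl7 (edgeR adjusted p = 0.0354), and not Rpl7a (edgeR adjusted p = 0.0629), and it changed no other call of the members. The labels do not say whether replicate numbers pair the samples. Differences between R1 and R2 over all peaks correlated at -0.036 (0 h and 12 h), -0.050 (0 h and 48 h) and 0.078 (12 h and 48 h). Over the members the values were -0.305, 0.076 and 0.069. Such correlations cannot decide whether the libraries were paired. The median at 12 h vs 0 h was -0.040 with TMM factors, -0.056 with DESeq2 and -0.16 to -0.067 with a library left out. At 48 h vs 0 h it was 0.15 with TMM factors and with DESeq2, and 0.048 to 0.087 with a library left out. At 48 h vs 12 h it was 0.22 with the GC offset and 0.14 to 0.24 with a library left out. The number of members within 1.5-fold was 20 to 73 at 12 h vs 0 h, 41 to 76 at 48 h vs 0 h and 11 to 71 at 48 h vs 12 h with a library left out, and in the last comparison 37 with DESeq2 and 38 with the 4 libraries compared. The share of reads in members was 0.765%, 0.706% and 0.800% at 0 h, 12 h and 48 h with the nearest peak, 1.53%, 1.70% and 1.58% of the reads in promoter peaks, and 0.810% to 0.813%, 0.724% to 0.778% and 0.846% to 0.854% with a library left out. No named member changed direction past the threshold. Where a library was left out of a comparison, the lone library was assumed to vary like the other groups. The cause of these shifts was not tested.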

Other observations

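The 4 members on chromosome X were chosen for description with their values in view. Rpl10, a protein near the peptidyl transfer centre, had 377 and 391 scaled counts in the 0 h libraries, 363 and 423 in the 12 h libraries, and 467 and 506 in the 48 h libraries. Rpl39, a small protein of the exit tunnel, had 415 and 385 in the 0 h libraries, 452 and 480 in the 12 h libraries, and 467 and 510 in the 48 h libraries. In both genes each 48 h library was above each 0 h library, as in Rps4x. Rpl36a had 270 and 205 scaled counts at 0 h and 255 and 260 at 48 h, which overlapped. The median log2 fold change of the 4 at 48 h vs 0 h was 0.32, the 35 strong promoter peaks of chromosome X were at 0.039, and none of the 4 members passed the edgeR test. The peaks of Rpl10, Rpl39 and Rps4x are also among these 35. The median GC content was 46.6% in the 4 members and 48.9% in the 35 peaks. The part of GC content in this difference was not tested. The 28 peaks of members that host a snoRNA had median log2 fold changes relative to 0 h of -0.081 after 12 h and 0.11 after 48 h.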
